A study of Mus musculus with 20 samples.

Results

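The MS4A (membrane-spanning 4-domains subfamily A) genes described here are the 7 rows of the gene count table with the symbols Ms4a4a, Ms4a4b, Ms4a4c, Ms4a6b, Ms4a6c, Ms4a6d and Ms4a7, out of 43346 genes in all. They were chosen by symbol. Both they and the marker lists used below were chosen with earlier results of these data known. The counts come from bulk RNA-seq of cortex from 5xFAD mice, a model in which transgenes for mutant human amyloid precursor protein and presenilin, driven in neurons by the Thy1 promoter, lead to amyloid deposits. All 4 groups were hemizygous for 5xFAD and, per the labels, came from male littermates: Control mice with wild-type Abca7 at 3 months, knockin (KI) mice with an amino acid substitution in Abca7 at 3 months, and the same pair of genotypes at 10 months, with 5 libraries in each group. The labels name heterozygous and homozygous knockin animals in the protocol but do not say which of these a KI library came from. No group lacked 5xFAD, so age and the build-up of amyloid cannot be told apart. Whether every library is its own animal is not said in the labels, and p-values refer to the spread among libraries only.

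MS4A proteins cross the membrane several times and are mostly found on blood cells, where individual members associate with immune receptors and help to set how these signal. Several members are expressed by macrophages and microglia, the resident macrophages of the brain. In human genetics the MS4A cluster is an Alzheimer's disease risk locus, and variants there are associated with the amount of soluble TREM2, the shed form of a lipid-sensing microglial receptor, in cerebrospinal fluid.

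Before any comparison, 2 libraries stood apart. The KI library replicate 5 at 10 months held 54206 counts of Xist, which is transcribed in female cells, and 1 count of the Y-linked gene Ddx3y, whereas the other 19 libraries held at most 218 and at least 2382 counts of these genes, so it went against the label of male animals. The KI library replicate 3 at 3 months lay at 55.2 on the second principal component, which carried 14.4% of the variance, while the other 19 lay between -28.9 and 31.9. These libraries bear on the members directly: KI replicate 5 was the highest of its group for 5 of the 7 members, and KI replicate 3 was the highest of its group for 6 of the 7. Library totals ran from 42896149 to 57447015 counts. The dissections also differed. Summed markers of thalamus ran from 27.9 to 105 CPM (counts relative to the size of the library) in Control and from 60.5 to 147 in KI at 3 months. In the 10-month libraries they ran from 31 to 37.4. Those of choroid plexus ran from 25 to 2220 over all 20, with a median of 38.2 in KI at 10 months. The medians of the other groups lay between 818 and 1040. The part of these differences in the results for the members was not tested. Summed markers of cortical neurons ran from 1270 to 1780 CPM. Abca7 averaged 28.2 CPM in Control and 25.4 in KI at 3 months and 27 and 24.1 at 10 months, which does not check the genotype labels, since counts do not show the substitution.

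All 7 genes lie within 1 cluster on chromosome 19 of the mouse genome build mm10. From lower to higher coordinate, Ms4a7 is at chr19:11321039-11336146, Ms4a4a at chr19:11375523-11392790, Ms4a4c at chr19:11404770-11427246, Ms4a4b at chr19:11443553-11463549, Ms4a6c at chr19:11469366-11482192, Ms4a6b at chr19:11516512-11531256 and Ms4a6d at chr19:11586604-11604849. Each of these spans covers the exons and introns of a protein-coding gene. The 3 Ms4a6 genes, among them Ms4a6d and Ms4a6c, the members called with age, are close copies of each other. Their longest coding sequences in GENCODE M21 were 741 bases for Ms4a6d, 732 for Ms4a6b and 651 for Ms4a6c. Over aligned bases, Ms4a6b was 85.0% identical to Ms4a6c and 79.4% identical to Ms4a6d, and Ms4a6c was 75.0% identical to Ms4a6d. The first 120 coding bases of each, from the start codon, are printed because they show how alike the copies are that the counting had to separate. Capitals mark the 22 positions at which the 3 genes are not all the same.
Ms4a6d: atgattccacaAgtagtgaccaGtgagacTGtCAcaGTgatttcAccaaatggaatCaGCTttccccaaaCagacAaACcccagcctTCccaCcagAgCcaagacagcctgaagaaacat
Ms4a6c: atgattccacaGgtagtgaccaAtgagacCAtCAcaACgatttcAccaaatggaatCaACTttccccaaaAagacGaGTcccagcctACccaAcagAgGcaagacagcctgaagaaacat
Ms4a6b: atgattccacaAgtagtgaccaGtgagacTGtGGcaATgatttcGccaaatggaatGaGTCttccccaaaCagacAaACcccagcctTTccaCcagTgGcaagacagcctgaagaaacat

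In this stretch Ms4a6c differed from Ms4a6d at 14 bases and Ms4a6b differed from Ms4a6d at 10. Every run of 100 bases in the annotated transcripts of Ms4a6d, Ms4a6b, Ms4a7 and Ms4a4a was found in no other gene. For Ms4a6c this held for 54.2% of such runs, because 893 of 1951 are shared with BE692007, an overlapping gene annotated as a processed transcript. BE692007 had at most 7 counts in a library. How the authors' counting treated strand and shared reads was not given in the sources used here, so the counts of Ms4a6c are less certain than those of the other Ms4a6 genes. Of the Ms4a4 genes, Ms4a4b and Ms4a4c were 91.7% identical in coding sequence, and 99.5% and 98.3% of their runs of 100 bases were unique. Shorter runs, of 50 bases, were unique for 97.5% in Ms4a6d, 96.4% in Ms4a6b, 97.6% in Ms4a4b and 91.8% in Ms4a4c. They were unique for 99.7% in Ms4a7 and 100% in Ms4a4a. In Ms4a6c it was 48.6%, with the rest shared among 21 other genes.

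The stretches before the RefSeq starts of Ms4a6b and Ms4a6c, the closest of the tested pairs in coding sequence, are shown because these neighbours share part of them although Ms4a6c was called with age in KI and Ms4a6b was not. Both are 250 bases on the plus strand, from RefSeq on GRCm38.p6, and end at a start annotated by RefSeq. For Ms4a6b that start lies inside the gene span of the count table, which begins at a lower coordinate. Ms4a6b is chr19:11518309-11518558 and Ms4a6c is chr19:11469118-11469367. Capitals mark the longest run of bases common to both, which is 48 bases long.
Ms4a6b: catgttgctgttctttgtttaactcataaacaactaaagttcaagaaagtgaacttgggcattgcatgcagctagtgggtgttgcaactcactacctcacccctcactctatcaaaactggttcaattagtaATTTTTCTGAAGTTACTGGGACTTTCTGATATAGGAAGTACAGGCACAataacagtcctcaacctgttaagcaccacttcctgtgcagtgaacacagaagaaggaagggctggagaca
Ms4a6c: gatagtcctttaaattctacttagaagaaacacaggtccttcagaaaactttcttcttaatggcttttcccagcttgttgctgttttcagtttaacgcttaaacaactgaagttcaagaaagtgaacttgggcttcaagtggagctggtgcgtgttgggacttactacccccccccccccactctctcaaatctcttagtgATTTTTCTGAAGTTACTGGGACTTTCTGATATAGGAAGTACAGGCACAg

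The run lay 118 to 71 bases before the RefSeq start of Ms4a6b and 49 to 2 bases before that of Ms4a6c. Of the 7 members, 6 had an entry in the promoter table, and Ms4a7 had 2. Ms4a6d had no entry and was not searched. The windows of the other 6 were searched on both strands for 4 motifs. The PU.1 site GAGGAAGT, held by 2.44% of all 32851 promoters of the table, was in none of the members' windows. Nor was the interferon-stimulated response element (ISRE), held by 2.98% of promoters, or the CLEAR element TCACGTGA of lysosomal genes, held by 0.785%. The AP-1 site TGANTCA, held by 6.75%, was in 1 window, that of the second Ms4a7 entry, 81 bases before its start. No match says only that these letters are not in the window.

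The members differed widely in level. CPM per kilobase of the deposited gene length, which allows genes to be set beside each other, averaged 0.895 over the 20 libraries for Ms4a6d, 0.564 for Ms4a6c, 0.391 for Ms4a6b and 0.377 for Ms4a4a. It was 0.117 for Ms4a7, 0.056 for Ms4a4c and 0.0133 for Ms4a4b. All of these are low values: none of the 7 reached 3 CPM in any library (the highest was Ms4a6b at 2.92), so a library held 38 to 155 counts of Ms4a6d and 0 to 11 of Ms4a4b. Ms4a6d had the highest mean in all 4 groups. In Control at 3 months Ms4a6c, at 0.371 ± 0.114 (SD, n = 5) CPM per kilobase, Ms4a6b, at 0.359 ± 0.0672, and Ms4a4a, at 0.395 ± 0.0542, overlapped in their spread. In KI, Ms4a6c and Ms4a6b both averaged 0.366 CPM per kilobase at 3 months, and stood at 0.934 ± 0.268 and 0.457 ± 0.123 at 10 months. The table held 19 genes with an Ms4a symbol, and the 7 members took 92.5% of all counts of these 19, 5562 against 451.

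**Figure D1:**
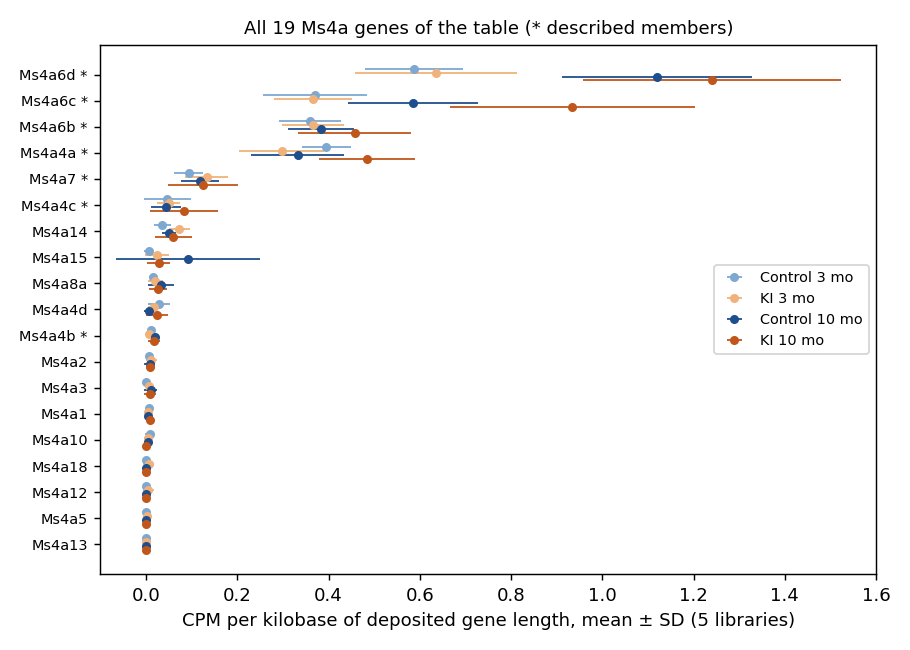
Mean level of all 19 Ms4a genes in CPM per kilobase of gene length (x axis) by group (colours), with bars for the SD over 5 libraries. Ms4a6d leads in every group, and the genes below Ms4a7 lie near 0.

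Of the 7 members, 5 passed the filter on low counts and were tested, in 1 fit with all other genes that passed, for a difference between groups. Ms4a4b and Ms4a4c did not pass. A gene is said to have risen or fallen, or to be called, where its adjusted p from edgeR's quasi-likelihood test was under 0.05. Between 3 and 10 months, 1 of the 5 tested members rose in Control and 2 rose in KI, and none fell. Of all 19623 genes tested, 4.07% were called with age in Control (3.72% higher) and 8.06% in KI (5.66% higher). Ms4a6d rose in both genotypes, to 1.90-fold in Control and 1.96-fold in KI, and Ms4a6c rose in KI, to 2.56-fold. In bulk tissue, more cells of a type and more RNA per cell cannot be told apart.

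Ms4a6d encodes a macrophage protein known to partner the complement receptor family member VSIG4. In Control, its level was 0.899, 0.944, 1.06, 1.33 and 0.869 CPM at 3 months and 1.48, 2.45, 1.75, 2.08 and 1.93 CPM at 10 months. In KI it was 1.54, 1.03, 1.27, 0.935 and 0.748 CPM at 3 months and 1.81, 1.78, 2.91, 1.88 and 2.38 CPM at 10 months. Every 10-month library lay above every 3-month library of its genotype. Among all genes tested, 4.56% had ages that did not overlap in this direction in Control and 5.34% in KI. The log2 fold change was 0.93 ± 0.20 (SE, n = 5 against 5) in Control, with an edgeR adjusted p of 0.00564, and 0.97 ± 0.19 in KI, with an edgeR adjusted p of 0.00248. A 2-sided exact permutation test on CPM gave 0.00794 in each genotype, the smallest p that 5 against 5 can give (28 such tests were run over the members, unadjusted). The age effects in the 2 genotypes differed by 0.04 ± 0.28 on the log2 scale, with a 95% interval from -0.54 to 0.63 and an edgeR adjusted p of 0.9995. Without the 2 libraries that stood apart, the Ms4a6d age changes were 0.93 ± 0.17 in Control and 0.98 ± 0.19 in KI.

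Ms4a6c is a member found in monocytes and macrophages. Its level in KI was 0.993, 0.842, 0.725, 0.651 and 0.539 CPM at 3 months and 1.45, 1.61, 2.83, 2 and 1.68 CPM at 10 months. These groups did not overlap, and KI replicate 5 at 10 months was the highest of all 20 libraries. In Control its level was 0.701, 0.714, 0.787, 1.13 and 0.48 CPM at 3 months and 1.18, 1.08, 0.867, 1.2 and 1.66 CPM at 10 months, so that the ages overlapped through replicate 9 at 3 months. The log2 fold change in KI was 1.36 ± 0.23 (SE, n = 5 against 5), with an edgeR adjusted p of 0.000441 and an exact permutation p of 0.00794. In Control it was 0.65 ± 0.23, with an edgeR adjusted p of 0.158, a 95% interval from 0.16 to 1.15 and an exact permutation p of 0.0238. The difference between the age effects was 0.71 ± 0.33, with an unadjusted p of 0.0429 and an edgeR adjusted p of 0.9995, so the genotypes were not shown to differ in it. Without the 2 libraries that stood apart, the Ms4a6c age change in KI was 1.29 ± 0.23, with an edgeR adjusted p of 0.000913.

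Ms4a6b, a member also studied in T cells, had the most counts of the family but no called change with age. Its level in Control was 1.71, 1.7, 1.78, 1.79 and 1.08 CPM at 3 months and 1.38, 1.56, 1.86, 1.58 and 2.21 CPM at 10 months. In KI it was 2.1, 1.79, 1.43, 1.38 and 1.51 CPM at 3 months and 1.84, 2.19, 2.92, 1.82 and 1.47 CPM at 10 months. The ages overlapped in both genotypes. The log2 fold change was 0.09 ± 0.19 in Control, with a 95% interval from -0.30 to 0.49, and 0.32 ± 0.19 in KI, with an interval from -0.07 to 0.72, and the edgeR adjusted p was 0.918 and 0.341. A p that misses the threshold does not show that the ages are alike, and the interval in KI reaches 1.64-fold.

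Ms4a4a, whose product sits in membrane microdomains of macrophages and associates with the fungal glucan receptor dectin-1, is the mouse counterpart of one of the human risk genes. It had 6 to 28 counts per library. In Control its level was 0.324, 0.399, 0.315, 0.342 and 0.274 CPM at 3 months and 0.301, 0.229, 0.227, 0.215 and 0.416 CPM at 10 months, overlapping between ages. In KI it was 0.26, 0.287, 0.242, 0.122 and 0.33 CPM at 3 months and 0.334, 0.519, 0.469, 0.31 and 0.391 CPM at 10 months, where only replicate 7 at 3 months and replicate 6 at 10 months overlapped. The log2 fold change was -0.24 ± 0.25 in Control (edgeR adjusted p of 0.804) and 0.69 ± 0.25 in KI (edgeR adjusted p of 0.0996). The difference between these age effects, 0.94 ± 0.36, had an unadjusted p of 0.0157 and an edgeR adjusted p of 0.9995.

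Ms4a7 marks macrophages of the brain's borders more than parenchymal microglia. It had 11 to 58 counts per library and the widest spread of the tested members. In Control it stood at 0.416 ± 0.144 (SD, n = 5) CPM at 3 months and 0.525 ± 0.188 at 10 months, and in KI at 0.591 ± 0.21 and 0.558 ± 0.342. In KI at 10 months single libraries ran from 0.2 CPM in replicate 6 to 1.09 in replicate 5, a range that holds all 15 libraries of the other groups. The log2 fold change with age was 0.34 ± 0.38 in Control (edgeR adjusted p of 0.825) and -0.08 ± 0.37 in KI (edgeR adjusted p of 0.933). Of 8 listed markers of border macrophages, 0 were called with age in either genotype, with a median log2 fold change of -0.18 in Control and -0.04 in KI against a median of 0 over all genes. Their summed level ran from 14.3 to 33.1 CPM in Control and from 28.4 to 33.7 in KI at 3 months, and from 16.4 to 32.9 and from 24.3 to 29.2 at 10 months.

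Ms4a4b and Ms4a4c were close to the limit of detection. Ms4a4b, best known from T cells, had 0 to 4 counts in the 3-month libraries and 1 to 11 in the 10-month libraries. Its mean level was 0.0541 ± 0.0328 CPM in Control and 0.0328 ± 0.0318 in KI at 3 months, and 0.1 ± 0.0501 and 0.0933 ± 0.073 at 10 months. All 4 groups overlapped, and exact permutation tests gave 0.119 for age in Control and 0.135 in KI. Markers of T cells were scarce too: 4 of 11 passed the filter, 0 of these were called with age, and Cd3e, a chain of the T cell receptor complex, had 0 to 10 counts per library. Cd3e and Cd8a, the co-receptor of cytotoxic T cells, had too few counts to be tested. Cd3e averaged 0.0213 ± 0.0143 CPM in Control and 0.0507 ± 0.0377 in KI at 3 months, and 0.0699 ± 0.0314 and 0.113 ± 0.0567 at 10 months. Cd8a averaged 0.0278 ± 0.0332 and 0.0257 ± 0.0277 CPM at 3 months, and 0.108 ± 0.0693 and 0.145 ± 0.0689 at 10 months. The means of both were thus higher at 10 months in each genotype, as that of Ms4a4b was, and their part in its values was not tested. The other listed markers did not all share this direction. Of the 4 tested, 2 had a log2 fold change with age above 0 in Control and 3 in KI. Il7r was at -0.30 ± 0.30 in Control and -0.51 ± 0.30 in KI. Cd3d averaged 0.0209 CPM in Control and 0.0362 in KI at 3 months, and 0.0709 and 0.0378 at 10 months. The summed T cell markers, of which Cd4 alone averaged 1.99 to 2.52 CPM over the groups, ran from 4.03 to 7.55 CPM in Control and from 4.47 to 5.89 in KI at 3 months, and from 3.59 to 6.58 and from 3.97 to 6.94 at 10 months. Ms4a4c had 0 to 20 counts, of which the 20 were in KI replicate 5 at 10 months, and its group means lay between 0.0766 and 0.146 CPM. No difference between groups was shown for either gene, and what size of difference could be detected at this depth was not computed.

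**Figure D2:**
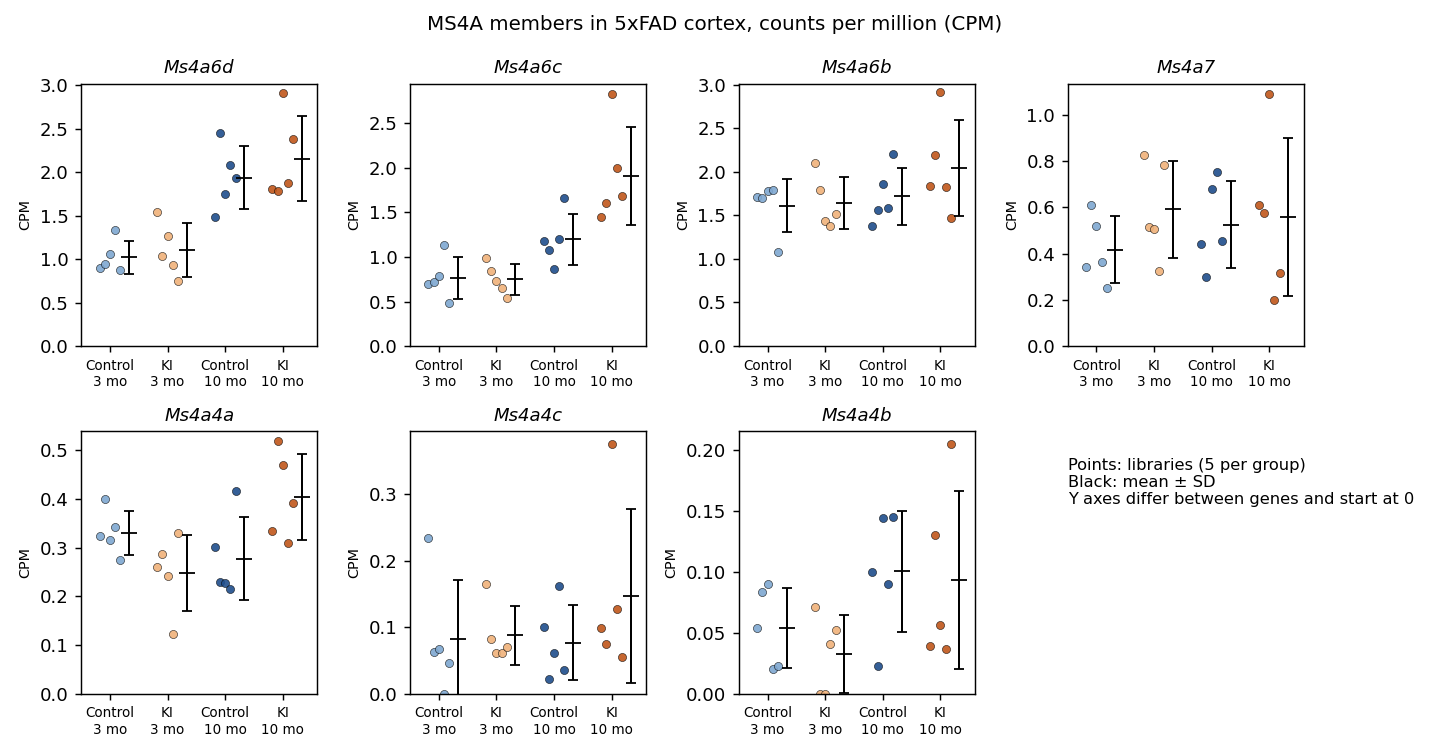
Level of each member in CPM (y axis, scaled per gene) in the 5 libraries of each group, with the mean and SD in black. The 10-month points lie above the 3-month points of the same genotype for Ms4a6d in both genotypes and for Ms4a6c in KI, and overlap for the other members.

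The make-up of the Ms4a6 counts differed between the ages. Ms4a6b held 47.6% ± 4.11 (SD, n = 5) of the summed Ms4a6b, Ms4a6c and Ms4a6d counts of a library in Control at 3 months and 35.3% ± 4.37 at 10 months. In KI its share was 47.3% ± 4.54 at 3 months and 33.5% ± 4.73 at 10 months. In Control the lowest share at 3 months was 42.2% and the highest at 10 months 41.5%, and in KI these were 41.8% and 39.2%, so the ages did not overlap. The 2-sided exact permutation p was 0.00794 in both genotypes. Ms4a6d took a larger share in Control, from 30.3% to 40% (exact permutation p of 0.0159), and Ms4a6c a larger share in KI, from 21.4% to 31.1% (exact permutation p of 0.00794). At 10 months the share of Ms4a6c was 24.6% in Control and 31.1% in KI (exact permutation p of 0.0397, groups overlapping). These are 12 comparisons of shares, chosen after the values were seen and unadjusted, the 3 shares of a library add up to 100%, and the uncertainty in counting Ms4a6c bears on all of them.

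**Figure D3:**
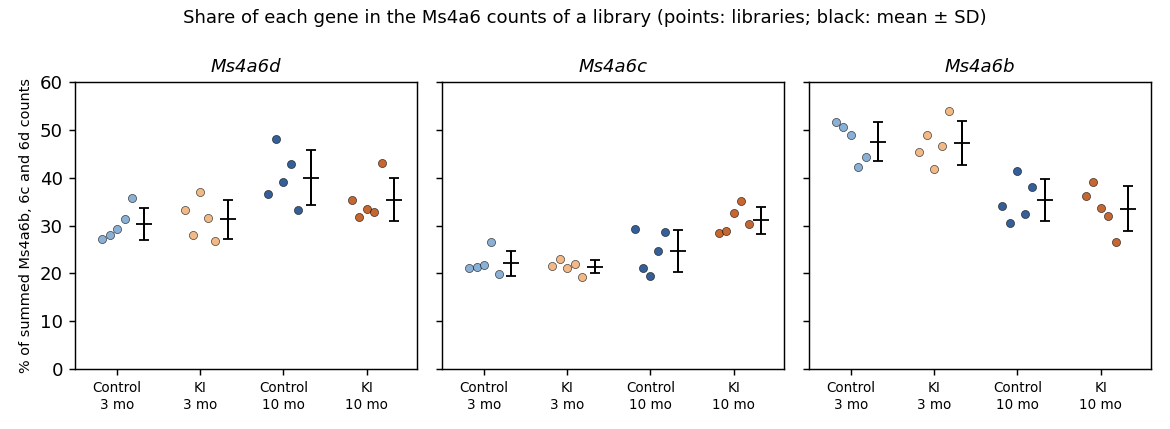
Share of Ms4a6d, Ms4a6c and Ms4a6b in their summed counts (y axis, percent) in each library by group, with mean and SD in black. The share of Ms4a6b is lower in all 10-month libraries than in any 3-month library of the same genotype.

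Between genotypes no tested member was called. At 3 months 5 of 19623 genes, 0.0255%, were called between KI and Control, and 12, 0.0612%, at 10 months. Over the average of both ages 15, 0.0764%, were called. At 3 months the log2 fold changes of KI against Control were 0.11 ± 0.20 (SE) for Ms4a6d, -0.03 ± 0.24 for Ms4a6c, 0.02 ± 0.19 for Ms4a6b, -0.41 ± 0.26 for Ms4a4a and 0.50 ± 0.38 for Ms4a7, all with an edgeR adjusted p of 0.9998. Their 95% intervals reached from 0.518-fold for Ms4a4a to 2.48-fold for Ms4a7.

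At 10 months all 5 tested members had a mean level in KI above that in Control. Among listed markers of microglia, 9 of 9 pan-microglial and 17 of 18 disease-associated ones had a log2 fold change above 0 too. The median over all genes was 0. The log2 fold change was 0.67 ± 0.22 for Ms4a6c, with an unadjusted p of 0.00628 and an edgeR adjusted p of 0.439. Its 95% interval, not adjusted for the number of genes, ran from 1.15-fold to 2.20-fold. Ms4a6c levels overlapped between the genotypes, since replicate 10 of Control, at 1.66 CPM, exceeded 2 of the 5 KI libraries. Without the 2 libraries that stood apart the difference was 0.48 ± 0.20, with an edgeR adjusted p of 0.393. For Ms4a4a it was 0.53 ± 0.25 (edgeR adjusted p of 0.621), for Ms4a6b 0.25 ± 0.18 (0.786), for Ms4a6d 0.15 ± 0.19 (0.904) and for Ms4a7 0.08 ± 0.37 (0.980). The difference for Ms4a7 was -0.32 ± 0.35 without the 2 libraries that stood apart. For the genotype by age interaction 0% of genes were called by edgeR, with 883 at an unadjusted p under 0.05, and DESeq2 called 4 and limma-voom 3.

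**Figure D4:**
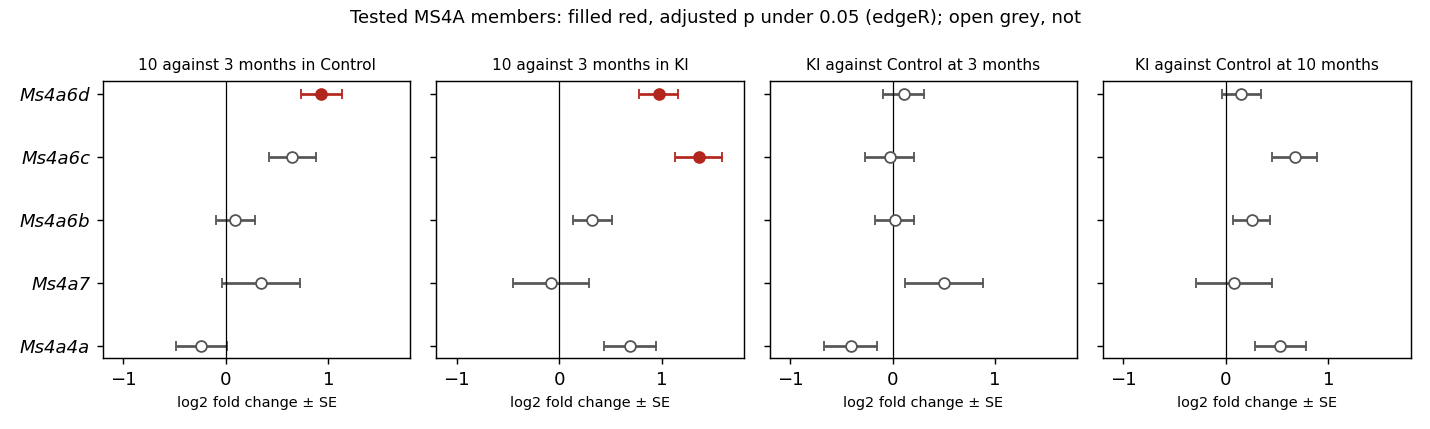
Log2 fold change of the 5 tested members (x axis) with its SE as a bar, in 4 comparisons. Filled red points passed an adjusted p of 0.05, which Ms4a6d did with age in both genotypes and Ms4a6c with age in KI, and no member did between genotypes.

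The level of microglial genes also rose with age: the geometric mean of 9 pan-microglial markers went from 16.4 ± 1.27 (SD, n = 5) to 35.6 ± 3.88 CPM in Control and from 17.6 ± 1.27 to 39.4 ± 4.95 CPM in KI, and all 9 rose in each genotype. The fit was therefore repeated with each library scaled to that level, so that a log2 fold change of 0 means a change as large as that of the markers. It took the marker level of each library as known, so its SE and p leave out the error of that level. Under this scaling the median of all genes moved by -1.12 in Control and by -1.15 in KI, and 91.1% and 93% of all genes were called lower, so values are to be read against those medians. Ms4a6d then changed by -0.19 ± 0.21 in Control (edgeR adjusted p of 0.375) and by -0.22 ± 0.21 in KI (0.308). Ms4a6c changed by -0.47 ± 0.23 in Control (0.0511) and by 0.18 ± 0.22 in KI (0.442).

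Ms4a6b fell relative to the microglial markers by 1.03 ± 0.19 in Control, with an edgeR adjusted p of 5.71e-06, and by 0.85 ± 0.18 in KI, with 7.23e-05. As a percentage of the marker level, Ms4a6b stood at 9.8 ± 1.67 (SD, n = 5) in Control and 9.39 ± 1.95 in KI at 3 months and at 4.81 ± 0.568 and 5.18 ± 1.02 at 10 months. The ages did not overlap in this ratio: its lowest 3-month values were 7.21% and 8.2%, and its highest 10-month values 5.51% and 6.13%. Ms4a6d, by contrast, stood at 6.27% ± 1.36 and 6.35% ± 2.06 at 3 months and at 5.49% ± 1.18 and 5.41% ± 0.561 at 10 months, and overlapped. The marker level itself did not overlap between ages, at most 17.9 and 19.3 CPM at 3 months and at least 31.1 and 35.7 at 10 months. A gene of unchanged CPM would thus fall in this ratio too. The falls of Ms4a6b were no larger than the medians of all genes, -1.12 and -1.15. How many genes did not overlap in this ratio was not counted. Ms4a4a fell relative to the markers by 1.36 ± 0.29 in Control (edgeR adjusted p of 7.51e-05) and changed by -0.45 ± 0.29 in KI (0.139). Ms4a7 fell relative to the markers by 1.27 ± 0.33 in KI (edgeR adjusted p of 0.000543) and by 0.77 ± 0.34 in Control (0.0311). That Control call for Ms4a7 was lost without 3-month replicate 7 or 8 or 10-month replicate 7 or 10, with an edgeR adjusted p of up to 0.101. Between genotypes at 10 months 0.0306% of genes were called under this scaling and none of the members, with Ms4a6c at 0.52 ± 0.22 (edgeR adjusted p of 0.476). Ms4a4a was then at 0.4 ± 0.28, Ms4a6b at 0.11 ± 0.18, Ms4a6d at -0.01 ± 0.2 and Ms4a7 at -0.09 ± 0.33. The median of all genes in that comparison was -0.14.

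**Figure D5:**
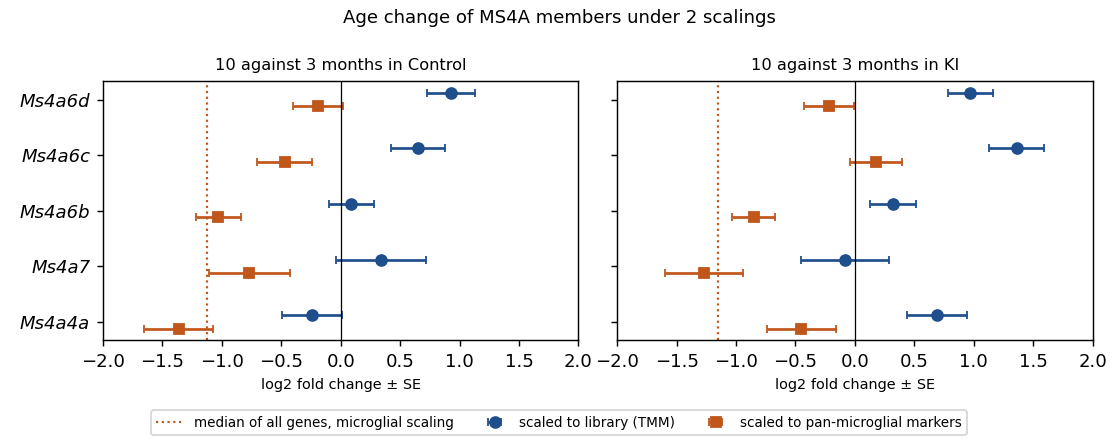
Log2 fold change with age of the 5 tested members (x axis, bars are SE) with libraries scaled as a whole (blue circles) and to the 9 pan-microglial markers (orange squares), and the median of all genes under the second scaling (dotted line). Under the second scaling Ms4a6d lies at -0.19 in Control and -0.22 in KI, Ms4a6c at -0.47 and 0.18, and Ms4a6b at -1.03 in Control, where the dotted line is at -1.12.

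Genes of the TREM2 pathway are given beside the members because of the human genetics. Of 11 listed genes, 8 rose with age in Control and 9 in KI, and none fell, with a median log2 fold change of 0.74 and 0.99 against 0 over all genes. Trem2 itself rose by 2.02 ± 0.13 (SE, log2) in Control and 2.68 ± 0.13 in KI, and Tyrobp, its signalling adaptor, by 2.23 ± 0.14 and 2.68 ± 0.14. Pik3cg, a lipid kinase subunit of immune cells, rose by 0.92 ± 0.11 and 1.17 ± 0.11. Between genotypes, 0 of the 11 were called at either age. Markers of microglial states rose as well: 16 of 18 disease-associated markers in Control and 17 of 18 in KI, and 6 and 8 of 10 homeostatic markers. Of the interferon response genes 13 of 17 rose in Control and 11 of 17 in KI. Of all genes tested, 3.72% were called higher in Control and 5.66% in KI. The lists share genes: Trem2 and Tyrobp are also disease-associated markers, and Cx3cr1 is both a pan-microglial and a homeostatic marker. Of 7 thalamus markers, 1 fell in Control, where 0.357% of all genes were called lower, and 6 fell in KI, where 2.41% were. Their part in the age change of the members was not tested.

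Over the 20 libraries, the genes outside the family whose log2 CPM was most like that of Ms4a6c were Tlr7, an endosomal RNA sensor, with a Pearson r of 0.93, followed by Rin2 at 0.92, Itpripl2 at 0.91, Srgn at 0.90 and Tlr13 at 0.90. Once group means were removed, r with Tlr7 was 0.81 and r with Rin2 was 0.68. For Ms4a6d the nearest were Tlr2, a surface sensor of bacterial lipoproteins, and Naip5, Osmr, Dtx3l and Hpgds, each at 0.91, and between 0.55 and 0.70 within groups. For Ms4a6b the nearest was Abca9, at 0.79 both over all libraries and within groups, followed by Fgl2 at 0.77 and 0.84. Ms4a7 was most like Krt9, at 0.83, and Ms4a4a like Nudt19, at 0.69. Among the members themselves, Ms4a6c and Ms4a6d had an r of 0.87, and 0.67 within groups, Ms4a6b and Ms4a6c 0.68 and 0.70, and Ms4a6d and Ms4a7 0.14 and 0.18. These values are descriptions, since the libraries share the step with age, their depth and their dissection.

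Counting error is part of the spread of the members with few counts. For Ms4a4a the coefficient of variation between libraries was 13.7% in Control and 31.5% in KI at 3 months, where counting alone gives 25% and 28.4%. For Ms4a6c in KI at 10 months it was 28.7%, where counting alone gives 9.88%, and for Ms4a7 in the same group 61.4% against 18.4%. For Ms4a4c it was 108% against 48.8% in Control at 3 months and 89.4% against 35.8% in KI at 10 months, and for Ms4a4b 60.6% against 62% and 78.2% against 44.7%. The spread of Ms4a4a at 3 months was thus below what counting gives in Control and near it in KI. That of Ms4a6c, Ms4a7 and Ms4a4c was wider in the groups named for them. In KI at 10 months replicate 5 was the highest library for Ms4a6c, Ms4a7 and Ms4a4c. In KI at 3 months Ms4a4c was at 50.5% against 48.8% and Ms4a6c at 23.3% against 16.6%.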

How the data were processed

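Bulk RNA-seq of cortex was used from 20 libraries in 4 groups of 5, grouped by the genotype and age labels. Raw gene counts, with a gene length in another column, came from a single table deposited by the authors. The submitters' processing notes name mm10 as the build. The aligner, the counter, its strand setting and the annotation are not given in the sources used here. Library totals of 42896149 to 57447015 counts leave counting error large for members with few counts. The members and gene lists were chosen with earlier results of these data known. Genes named beside the members were the list genes of smallest p in a comparison and the 5 genes with the highest Pearson r to a member.

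The quasi-likelihood test of edgeR 4.0.16 (R 4.3.3) was run across all 19623 genes left by filterByExpr, with TMM scaling (0.972 to 1.03), 4 group means and 16 residual degrees of freedom. Benjamini-Hochberg adjustment was made per comparison, and CPM used TMM-scaled totals. The script was tested on simulated data. Correlations used log2 CPM with a prior count of 2. Coding sequences were aligned with mafft 7.526, and RefSeq promoters of GRCm38.p6 were matched by symbol. Alternatives were RLE scaling, other filters, DESeq2 1.42.0, limma-voom (limma 3.58.1), only the compared libraries, a replicate block, a threshold of 0.10 and leaving out libraries. Leaving out the 2 libraries that stood apart and testing Ms4a6 shares were chosen after seeing the data.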

Additional observations from a re-analysis of the deposited data

Results flagged for a closer look

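In 4 of 28 groups of 5 libraries (7 members in 4 groups), the highest or lowest library lay apart from the others by more than 0.71 of the group's range. About 1 in 20 groups of normally distributed values would. Counts as few as those of Ms4a4c are not so distributed, and the groups share libraries, so that rate does not measure chance here. Ms4a4c was set apart in 3 of its 4 groups. Its level was 0.234 CPM in Control replicate 6 at 3 months, where the next was 0.0674, and 0.165 CPM in KI replicate 3 at 3 months, where the next was 0.0821. In KI replicate 5 at 10 months Ms4a4c was at 0.375 CPM, where the next was 0.128. These values rest on 13, 7 and 20 counts. Ms4a6b was low in Control replicate 10 at 3 months, at 1.08 CPM where the next lowest was 1.7, and that library was the lowest of its group for 5 of the 7 members.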

How the results depend on the processing

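The age calls of Ms4a6d in both genotypes and of Ms4a6c in KI held under every alternative run with scaling by library. Leaving out 1 library at a time, the log2 fold change of Ms4a6d ran from 0.83 to 1.03 in Control and from 0.84 to 1.11 in KI, and that of Ms4a6c in KI from 1.18 to 1.48. The uncalled age change of Ms4a6c in Control kept an adjusted p between 0.0591 and 0.407 when 1 library was left out. Relative to microglial markers it was called (log2 fold change of -0.47) with a minimum mean of 1 CPM (adjusted p of 0.0427) and without the 2 libraries that stood apart (0.0386). Under that scaling it was also called in 5 of the 10 fits that left out 1 library, with an edgeR adjusted p between 0.0233 and 0.277. A minimum mean of 1 CPM leaves Ms4a4a and Ms4a7 untested. The age change of Ms4a4a in KI, 0.69, passes a threshold of 0.10.

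Counts of called genes moved more. KI against Control at 10 months (12 genes) gave 67 by limma-voom, 58 by DESeq2, 7 with only the compared libraries, and 7 to 14 without 1 library. The average over ages (15) gave 53, 49 and, at a threshold of 0.10, 31. At 3 months (5) both tools gave 12, and for the interaction (0) 3 and 4. Limma-voom called 1260 genes with age in Control and 3055 in KI, and only the compared libraries gave 958 in KI. Scaled to microglial markers, KI against Control at 10 months (6) gave 17 with no filter and 12 without the 2 libraries that stood apart. The cause was not tested.

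The labels share replicate numbers between groups, but of 18 pairs with the same number 4 correlated above 0.1, and 2 of 20 libraries were most like a library of their own number, so the numbers do not pair the libraries. Only replicate numbers 6 and 7 occur in both Control and KI, so under a replicate block the genotype comparisons rest largely on those libraries. Such a block gave 4 genes for KI against Control at 10 months and 4 for the average, and 9 at 3 months scaled to microglial markers (5). Ms4a6d rose with age by 0.93 in Control and 0.97 in KI with the block, and Ms4a6c by 1.34 in KI. With the replicate block the sign turned for uncalled genotype differences: at 3 months Ms4a6b (-0.15) and Ms4a6d (0.00), at 10 months Ms4a7 (-0.44), on average Ms4a4a (-0.17), Ms4a6b (-0.04) and Ms4a7 (-0.16), and scaled to microglial markers Ms4a6b at 10 months (-0.08) and Ms4a6d at 3 months (-0.12).

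Only values that were never called changed sign elsewhere. With limma-voom these were Ms4a6b at 3 months (-0.13), Ms4a6d (-0.05) and Ms4a7 (-0.03) at 10 months, Ms4a4a (-0.02) and Ms4a6d (0.00) on average, and the interaction of Ms4a6d (-0.09). Without the 2 libraries that stood apart they were Ms4a6b (-0.07) and Ms4a6d (-0.04) at 3 months, Ms4a7 at 10 months (-0.32), Ms4a6d on average (-0.01) and Ms4a6d at 3 months scaled to microglial markers (-0.16). Without 1 library, KI against Control ranged at 3 months from -0.09 to 0.08 for Ms4a6b, -0.16 to 0.14 for Ms4a6c and -0.04 to 0.21 for Ms4a6d, at 10 months from -0.32 to 0.29 for Ms4a7, and on average from -0.01 to 0.16 for Ms4a4a. Age ranged from -0.02 to 0.16 for Ms4a6b in Control and -0.47 to 0.13 for Ms4a7 in KI, and the interaction of Ms4a6d from -0.09 to 0.18. Scaled to microglial markers, genotype at 10 months ranged from -0.06 to 0.12 for Ms4a6d and -0.36 to 0.12 for Ms4a7, and at 3 months from -0.28 to 0.07 for Ms4a6c and -0.16 to 0.14 for Ms4a6d.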

Other observations

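Most of the other 12 Ms4a genes of the table had few counts: 10 had under 10 counts in every library, among them Ms4a1, which encodes the B cell antigen CD20, with at most 6 counts, and Ms4a2, a subunit of the high-affinity IgE receptor of mast cells, with at most 5. Ms4a14 was the 1 that was tested. It had 2 to 26 counts per library, and its log2 fold change was 0.46 ± 0.48 with age in Control and -0.28 ± 0.43 in KI, with edgeR adjusted p of 0.812 and 0.771. Ms4a15 reached 32 counts in 1 library and was 0 in 7 others.

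The Ms4a4 genes summed (Ms4a4a, Ms4a4b, Ms4a4c and Ms4a4d) stood at 0.511 ± 0.0968 CPM (SD, n = 5) in Control and 0.397 ± 0.128 in KI at 3 months, and at 0.466 ± 0.122 and 0.681 ± 0.185 at 10 months. The Ms4a6 genes summed stood at 3.39 ± 0.655 and 3.50 ± 0.722 CPM at 3 months and at 4.86 ± 0.659 and 6.12 ± 1.44 at 10 months. With no filter on low counts, Ms4a4b and Ms4a4c could be fitted, and Ms4a4b changed with age by 1.46 ± 0.70 in KI, with an edgeR adjusted p of 0.329.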
